A study of Mus musculus with 9 samples.

Results

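The genes described here encode drug-metabolising enzymes other than the Cyp1 and Ugt1a families, measured by RNA-seq in mouse colon organoids. They were selected on their symbol and on their level: protein-coding genes of the Cyp2, Cyp3, Cyp4, Gst, Sult, Aldh, Ugt2, Ces1 and Ces2 families with a mean of 10 or more normalised read counts over the 9 libraries. Of 166 protein-coding genes with such a symbol, 62 met this threshold, among 12741 genes that met it in the whole table of 48795. Another 58 were listed at 0 in all libraries, and 46 lay above 0 but under the threshold. Since the level chose the members, the levels below are a description, and only the differences between groups were tested.

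These enzymes process foreign compounds and endogenous lipids in steps. Cytochromes P450, carboxylesterases and aldehyde dehydrogenases introduce or expose reactive groups by oxidation or hydrolysis, and glutathione S-transferases, sulfotransferases and glucuronosyltransferases then attach a polar group that allows export. The colonic epithelium meets such compounds from food and from bacteria, and the aryl hydrocarbon receptor (AHR), a ligand-activated transcription factor, is known for switching on part of this machinery.

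Organoids are three-dimensional cultures of epithelial cells, here grown in Matrigel from crypts of the whole colon. AHR KO organoids came from Villin-Cre Ahr fl/fl mice, in which a Cre driven by the Villin promoter removes a floxed part of Ahr in intestinal epithelium, and wild-type (WT) organoids came from littermates, with C57BL/6 as the background of both. All groups were kept in WENR, a medium with Wnt3a, EGF, Noggin and R-spondin that holds cells in a stem-cell state and that, per the methods of the study, also held N-acetylcysteine, nicotinamide, a p38 inhibitor and an ALK5 inhibitor. They received the solvent DMSO or 5 nM of the AHR ligand FICZ for 4 h, and the ages of the mice were not given in the sources used here. There were 2 WT DMSO libraries (replicates 2 and 3), 3 WT FICZ (1, 2 and 3), 2 AHR KO DMSO (1 and 3) and 2 AHR KO FICZ (1 and 3). Values below follow this order of replicates. Per the methods of the study the organoids came from biological replicates, and neither these nor the labels say which libraries share a mouse. The p-values measure the spread between these libraries.

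Libraries summed to between 23177058 and 25033827 normalised counts, with 1 read worth about 0.802 to 1.1 of them. Epithelial markers were abundant in every library, with Krt8 at 87200 to 99700, Cdh1 at 38600 to 44100, Epcam at 21200 to 35700 and Vil1 at 13200 to 16200, while fibroblast, endothelial and liver lists stayed under 10.4 and the leukocyte gene Ptprc was at 0. Of the 4 lists for mature cells, those of absorptive colonocytes and goblet cells moved with genotype: the sum of 6 absorptive colonocyte markers was 2880 to 4240 in WT and 912 to 1420 in AHR KO, and that of 6 goblet markers 3520 to 5580 and 1240 to 1690. The sums of the enteroendocrine (27.3 to 97.3 and 21.1 to 44.0) and tuft lists (35.3 to 75.7 and 34.8 to 70.6) overlapped. Of the 4 genes tested in each of the colonocyte and goblet lists, 3 colonocyte and 2 goblet genes were called lower under DMSO. In the tuft list Dclk1 was also called lower under DMSO, at 31.7 and 51.8 in WT and 5.27 and 3.27 in AHR KO. The other tuft gene tested, Avil, was not called there, and neither was called under FICZ. The immune list summed to 10.9 to 24.4 in WT and 43.2 to 76.6 in AHR KO, mainly from Cd74. Fewer cells of a type and less RNA per cell cannot be told apart in such bulk samples, and the part of these shifts in the results below was not tested. Ahr itself was higher in the AHR KO libraries, 1346 to 1443 against 783 to 858 in WT. A gene total counts exons outside the floxed part too and so does not check the deletion. Cyp1a1, the usual AHR target, was at 5.84 and 0 in WT DMSO and 0 and 2.93 in AHR KO DMSO, and under FICZ at 6987 to 7958 in WT and 100 to 139 in AHR KO, so that its FICZ libraries were above its DMSO libraries in AHR KO too.

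Detoxifying transferases dominated the levels. Per kb of transcript, averaged over the 9 libraries, the glutathione S-transferases Gstp1 (9853 normalised counts per kb), Gsto1 (8614) and Gsta4 (5897) led. The order was not the same in all groups: Gsto1 was above Gstp1 in AHR KO DMSO (8648 against 7367 per kb) and AHR KO FICZ (9161 against 8599). The glucuronosyltransferase Ugt2b34 (1391), Gstp2 (1159), Gsta1 (1123) and the mitochondrial acetaldehyde oxidiser Aldh2 (1119) followed, and their order also changed between groups. By the mean over the 9 libraries the highest P450 was Cyp2c55 at 379 per kb, the highest sulfotransferase Sult2b1 at 86.1, the highest carboxylesterase Ces2g at 60.4 and the lowest member Ugt2b35 at 3.64. Of these, Sult2b1 was the highest of its class in all 4 groups. In AHR KO FICZ Cyp2c55 (128.2) was under Cyp4f16 (159.9) and Cyp2s1 (132.9), and in WT Ces2c was above Ces2g (51.71 against 46.0 under DMSO and 57.35 against 43.09 under FICZ). Ugt2b35 was the lowest member in none of the 4 groups taken alone.

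**Figure D1:**
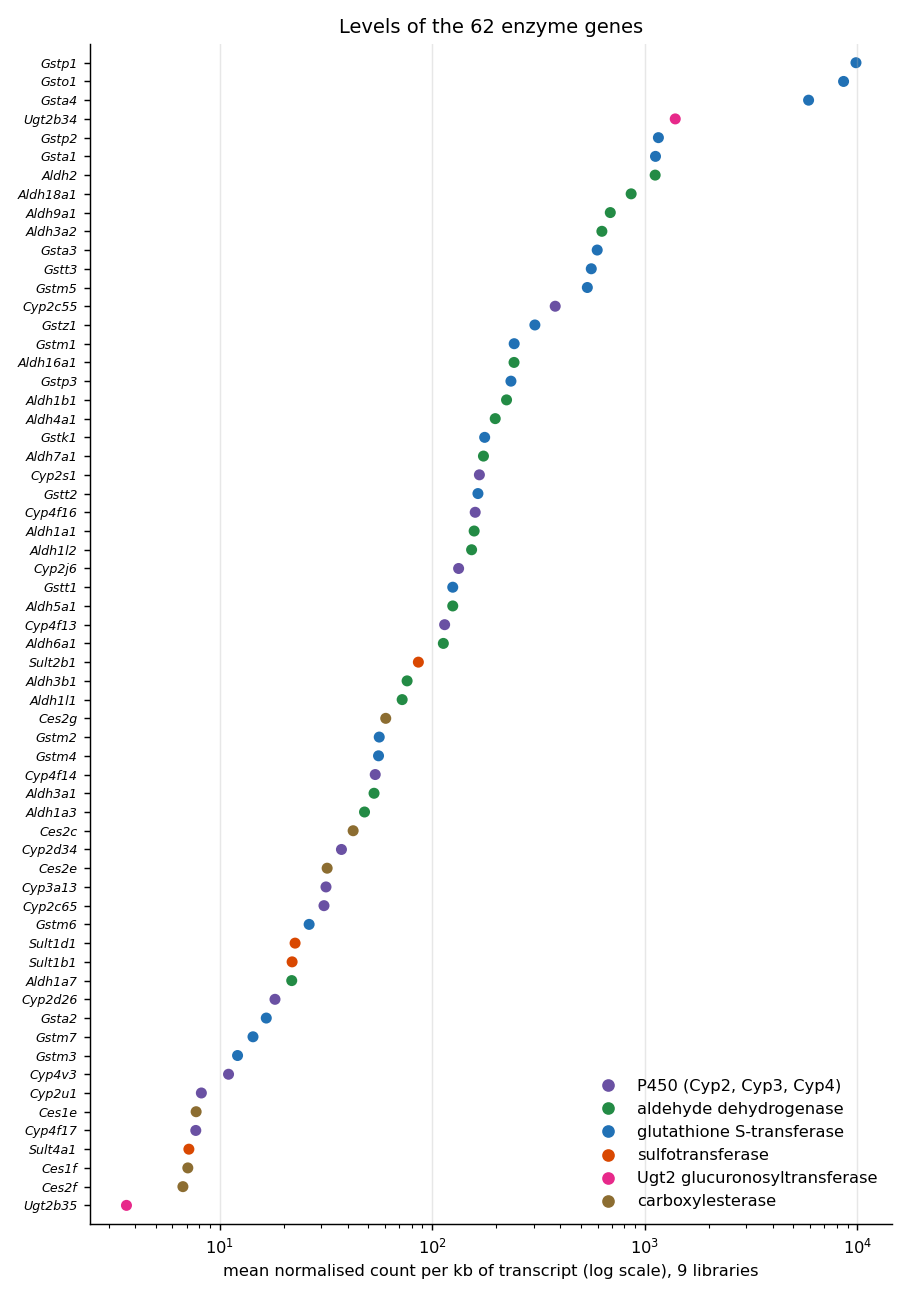
Mean normalised count per kb of transcript (log scale) of each of the 62 enzyme genes over 9 libraries, 1 point per gene and coloured by enzyme class. Gstp1, Gsto1 and Gsta4 stand above all others at 5897 to 9853 per kb, and no P450 exceeds 379.

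Families differed in how much of their repertoire was present. Among glutathione S-transferases 20 of 22 matching genes were members, and among aldehyde dehydrogenases 17 of 21. Only 7 of 48 Cyp2 genes, 1 of 9 Cyp3 genes (Cyp3a13), 5 of 20 Cyp4 genes, 4 of 21 sulfotransferases, 2 of 10 Ugt2 genes and 6 of 15 carboxylesterases reached the threshold. Just inside it were Ugt2b35 (mean 12.2), Ces2f (12.2), Ces1f (13.6) and Gsta2 (14.4). Just outside were Ces1g (9.28), Ces2b (8.15), Gsto2 (7.26) and Cyp2r1 (6.97). In 6 members (Ces1e, Ces1f, Ces2f, Gsta2, Gstm3 and Ugt2b35) at least 1 group had a mean under 10, so their selection rested on the groups where they were higher.

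The 62 members together made up 0.231 and 0.233% of the normalised counts in WT DMSO, 0.253, 0.264 and 0.259% in WT FICZ, 0.214 and 0.213% in AHR KO DMSO, and 0.227 and 0.22% in AHR KO FICZ. All WT FICZ libraries lay above all others in this share and the AHR KO DMSO libraries lay lowest. The most abundant genes weigh most in it: Gstp1 alone had means of 7592 in WT DMSO and 10470 in WT FICZ. The sum of all members was 57880 and 57250 in WT DMSO and 61660, 63630 and 63650 in WT FICZ. Gsto1, which reduces dehydroascorbate, had the highest mean count over the 9 libraries, although Gstp1 was above it in WT FICZ, and was at 9675 and 9095 in WT DMSO, 10320, 10370 and 10070 in WT FICZ, 10260 and 10190 in AHR KO DMSO and 10850 and 10800 in AHR KO FICZ. Aldh2 was at 4329 and 4432 in WT DMSO, 4430, 4388 and 5021 in WT FICZ, 4062 and 3853 in AHR KO DMSO and 4475 and 3945 in AHR KO FICZ, with both AHR KO DMSO libraries below all WT libraries. Neither gene was called in any comparison by limma, a linear model across all genes in which a gene was called at a Benjamini-Hochberg adjusted p under 0.05, although 3 alternative settings called Gsto1 for FICZ in WT. Of the 62 members, 30 were called in at least 1 of the 5 comparisons (48.4%, against 46.4% of all genes tested) and 32 in none.

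The first comparison asked how the enzymes differ between AHR KO and WT organoids. Called members were mostly lower in AHR KO, among them the P450s Cyp2c55, Cyp2c65 and Cyp4f14, the sulfotransferase Sult1b1 and the glucuronosyltransferase Ugt2b34, while the theta-class transferases Gstt1 and Gstt3 were higher. Under DMSO, 18 of the 62 members (29.0%) were called, against 9.05% of all genes tested. Of these, 5 were higher (8.06%, background 4.21%) and 13 lower (21%, background 4.83%). Under FICZ, 28 members (45.2%) were called against a background of 20.0%, with 8 higher (12.9%, background 9.48%) and 20 lower (32.3%, background 10.5%). The median absolute difference on the log2(value + 1) scale was 0.41 for the members and 0.14 for all genes under DMSO, and 0.45 and 0.16 under FICZ. The counts include 2 lower calls in each comparison (Ces1e and Ces1f) and 1 higher call under FICZ (Ces2f) of members that met the threshold only through the groups where they were higher, which favours such a difference. Groups did not overlap for 51 members (82.3%, all genes 58.0%) under DMSO and 43 (69.4%, all genes 47.2%) under FICZ, the called members among them. The DMSO count rests on 2 libraries a group: it was 7 without AHR KO DMSO 3, 9 without AHR KO DMSO 1 and 10 without WT DMSO 2, and the FICZ count was 18 without AHR KO FICZ 3. Leaving Ces1e and Ces1f aside, the calls of Aldh1b1, Gstt1 and Gstp1 under DMSO, and of 15 members under FICZ, held in all alternatives that tested them.

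The comparisons under DMSO and under FICZ share no library, but both take each gene's spread from the same fit, and their libraries may share mice. They called 17 members in the same direction, which is 94.4% of the 18 called under DMSO and 60.7% of the 28 called under FICZ, where the same shares over all genes were 83.5% and 37.9%. Of these, 13 were lower and 4 higher in AHR KO, with Ces1e and Ces1f among the 13. Aldh3a1 was the 1 member called in opposite directions, and 10 members (16.1%, against 12.4% of all genes) were called under FICZ only, Ces2f among them. Ces1e, Ces1f and Ces2f met the threshold only through the groups where they were higher, which favours such calls. Whether those 10 differ in size between the treatments is the interaction reported further on, which called 1 of them, Gsta4.

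**Figure D2:**
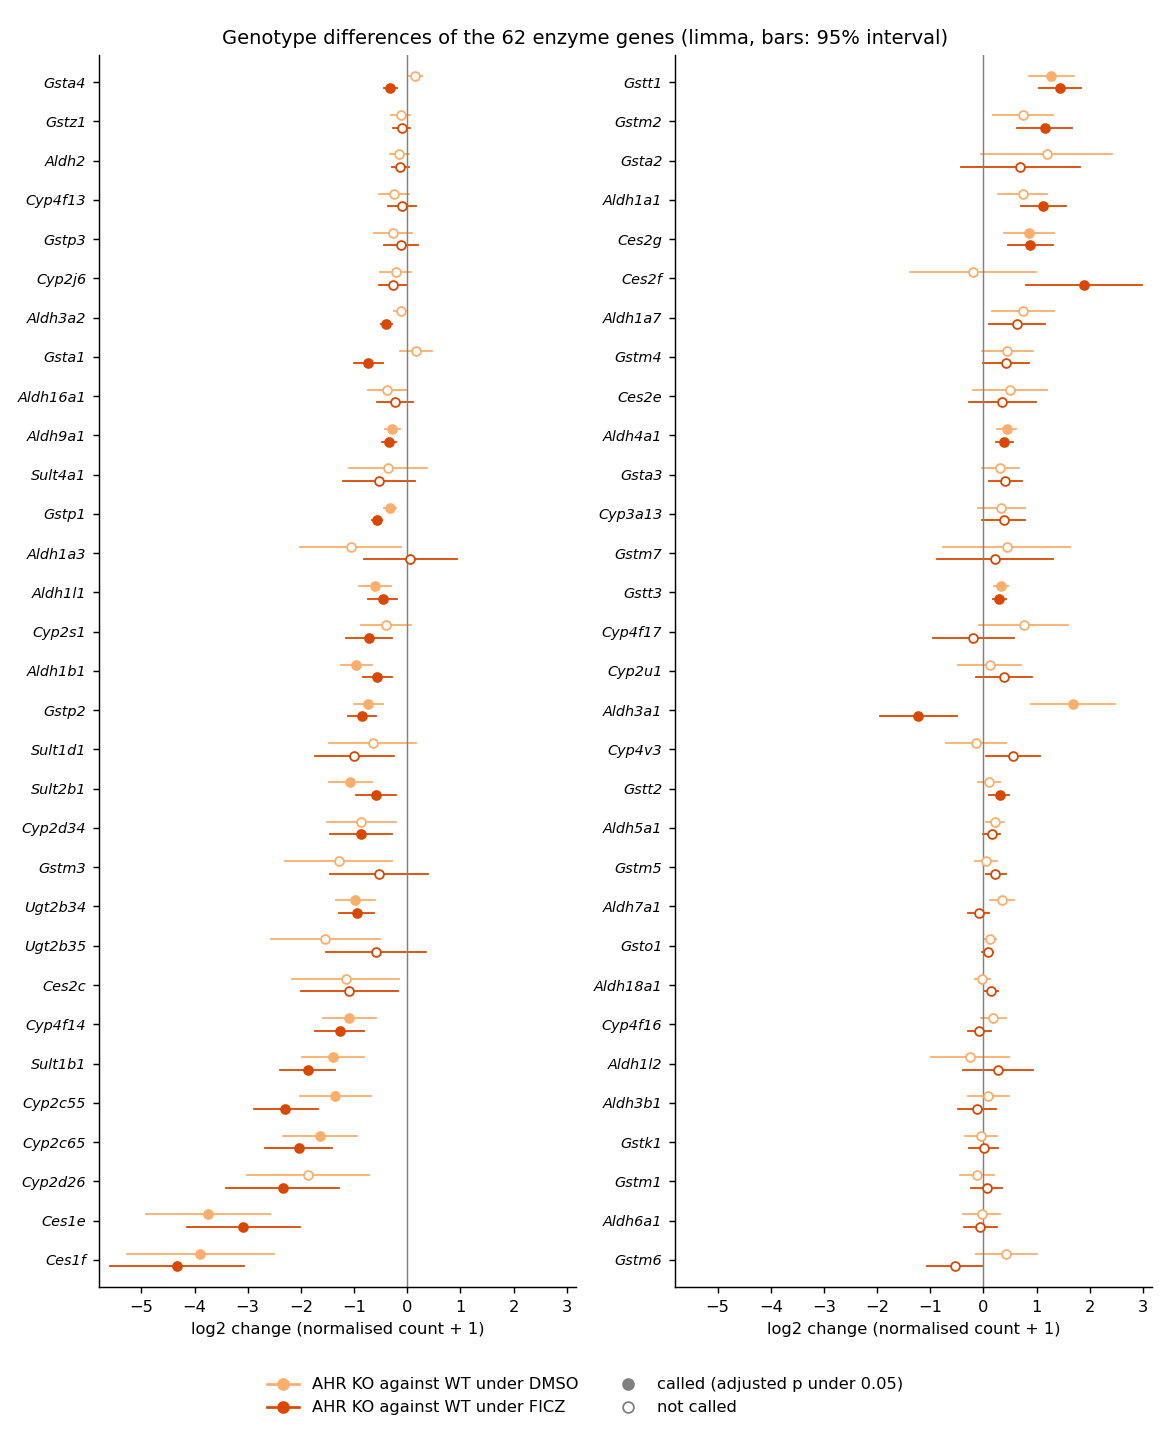
Difference between AHR KO and WT on the log2(normalised count + 1) scale for the 62 enzyme genes, under DMSO (light orange, upper point) and FICZ (dark orange, lower point), with bars for the 95% interval of the limma fit and filled points for called genes. Genes are ordered by the sum of both differences. Ces1f and Ces1e lie lowest, at -3.89 and -3.74 under DMSO, and Aldh3a1 is called on opposite sides of 0.

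Carboxylesterases hydrolyse ester and amide drugs as well as lipid esters. Ces1e (chr8:93201218-93229619, GRCm38) stood at 36.7 and 24.5 normalised counts in WT DMSO and 22.6, 23.8 and 29.7 in WT FICZ, but at 0.567 and 2.43 in AHR KO DMSO and 1.58 and 2.70 in AHR KO FICZ. Its neighbour Ces1f (chr8:93256236-93279747) was at 20.4 and 20.2 in WT DMSO, 19.1, 22.0 and 39.4 in WT FICZ, 1.07 and 0 in AHR KO DMSO and 0 and 0.719 in AHR KO FICZ. Both genes were thus close to 0 in all AHR KO libraries and present in all WT libraries. Because both met the threshold through WT alone, these differences are given as a description, with no test. On the log2(value + 1) scale they were -3.74 ± 0.52 (SE, n = 2 and 2) under DMSO and -3.09 ± 0.48 (n = 3 and 2) under FICZ for Ces1e, and -3.89 ± 0.62 and -4.34 ± 0.57 for Ces1f. In estimated reads over each group, Ces1e had 64 in WT DMSO, 3 in AHR KO DMSO, 73 in WT FICZ and 4 in AHR KO FICZ, and Ces1f had 42, 1, 78 and 1 in the same order.

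Another gene of this cluster, Ces1g (chr8:93302369-93337308), fell just under the threshold and was singled out after its values were seen. Its group means were 11.4 in WT DMSO, 18.9 in WT FICZ, 0.888 in AHR KO DMSO and 1.04 in AHR KO FICZ. Of the 4 Ces2 members, which encode carboxylesterases known from the intestine, none was called lower at the adjusted p under 0.05, and Ces2c alone was lower at an unadjusted p under 0.05. Ces2g was at 155 and 108 in WT DMSO, 147, 120 and 102 in WT FICZ, 227 and 244 in AHR KO DMSO and 208 and 244 in AHR KO FICZ, with all AHR KO libraries above all WT libraries. Its log2 difference was 0.86 ± 0.21 (adjusted p = 0.0307) in the DMSO libraries and 0.88 ± 0.19 (adjusted p = 0.00923) in the FICZ libraries. The first call held in 14 of 19 alternatives and was lost, among others, without WT DMSO 3 (adjusted p = 0.188), AHR KO DMSO 1 (0.116) or AHR KO DMSO 3 (0.179) and with no filter on low values (0.0553). The second was lost without AHR KO FICZ 3 (0.0904).

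Ces2f, at the edge of the threshold, was at 23.8 and 9.50 in WT DMSO, 5.04, 3.77 and 3.67 in WT FICZ, 13.2 and 12.9 in AHR KO DMSO and 12.7 and 25.7 in AHR KO FICZ. The WT FICZ libraries were its lowest, and it met the threshold through the other groups, so its differences are a description. AHR KO minus WT was 1.90 ± 0.49 on the log2 scale under FICZ and -0.20 ± 0.54 under DMSO. Ces2e was not called. Ces2c, which shares 42.2% of its 50-base words with other genes, was not called either, but was called lower under DMSO in 3 alternatives (-1.16, adjusted p = 0.0299 to 0.0442) and under FICZ without AHR KO FICZ 1 (-1.87, adjusted p = 0.00716).

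Cyp2 enzymes oxidise drugs, steroids and fatty acids. Cyp2c55 (chr19:39007019-39042693), which oxidises arachidonic acid, measured 1083 and 784 in WT DMSO and 1618, 916 and 1168 in WT FICZ. Its AHR KO values were 320 and 405 under DMSO and 328 and 184 under FICZ. The adjacent Cyp2c65 (chr19:39061015-39093944) showed the same order at a lower level, with 79.8 and 73.4 in WT DMSO, 116, 81.1 and 91.8 in WT FICZ, 22.4 and 25.3 in AHR KO DMSO and 31.1 and 16.1 in AHR KO FICZ. No AHR KO library reached the lowest WT library for either gene. The log2 difference for Cyp2c55 was -1.35 ± 0.3 (adjusted p = 0.0197) under DMSO and -2.29 ± 0.27 (adjusted p = 0.000261) under FICZ. For Cyp2c65 it was -1.64 ± 0.31 (adjusted p = 0.00932) and -2.04 ± 0.28 (adjusted p = 0.000739). Under FICZ both calls held in all alternatives, whereas under DMSO that of Cyp2c55 held in 15 of 19 and that of Cyp2c65 in 15 of 18. Both were lost without WT DMSO 2 (adjusted p = 0.141 and 0.0646), AHR KO DMSO 1 (0.135 and 0.0703) or AHR KO DMSO 3 (0.0734 and 0.0555), and that of Cyp2c55 also with robust eBayes (0.0521). Cyp2c65 shares 20.6% of its 50-base words with other genes, mainly Cyp2c66, which was listed at 0.

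Other P450s of this family were called under FICZ and missed the threshold under DMSO. Cyp2d26, of the debrisoquine hydroxylase family, was at 41.9 and 48.0 in WT DMSO, 55.8, 34.9 and 53.8 in WT FICZ, 15.2 and 8.75 in AHR KO DMSO and 16.02 and 4.30 in AHR KO FICZ. No AHR KO library reached the lowest WT library. Its log2 difference under FICZ was -2.34 ± 0.47 (adjusted p = 0.0065) and became -1.50 (adjusted p = 0.0525) without AHR KO FICZ 3. Under DMSO it was -1.87 ± 0.52 and just missed the threshold (adjusted p = 0.0523), but was called in 6 alternatives, among them a fit of only the groups compared (0.0171) and a pseudocount of 10 (0.026). Cyp2d34 (-0.87) and Cyp2s1 (-0.73) were also called lower under FICZ, against -0.86 (adjusted p = 0.0992) and -0.40 (adjusted p = 0.293) under DMSO, and both calls were lost without AHR KO FICZ 3 (-0.65, adjusted p = 0.258, and -0.34, adjusted p = 0.205). The call of Cyp2d34 held in 8 of 18 alternatives, and that of Cyp2s1 was also lost without WT FICZ 3 (0.0826) and in a fit of only the groups compared (0.0568). The remaining Cyp2 members, Cyp2j6 and Cyp2u1, and the single Cyp3 member Cyp3a13 were not called.

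Among the Cyp4 enzymes, which hydroxylate fatty acids and eicosanoids, Cyp4f14 differed. It measured 163 and 116 in WT DMSO, 196, 155 and 175 in WT FICZ, 60.9 and 67.2 in AHR KO DMSO and 85.2 and 60.2 in AHR KO FICZ, so that the highest AHR KO library lay below the lowest WT library. The log2 difference was -1.09 ± 0.22 under DMSO (adjusted p = 0.0146) and -1.27 ± 0.2 under FICZ (adjusted p = 0.00174). Under DMSO the call was lost without WT DMSO 2 (adjusted p = 0.119), AHR KO DMSO 1 (0.0944) or AHR KO DMSO 3 (0.0719). The other 4 Cyp4 members (Cyp4f13, Cyp4f16, Cyp4f17 and Cyp4v3) were not called, with log2 differences of -0.25 to 0.76 under DMSO and -0.19 to 0.56 under FICZ.

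Sulfotransferases transfer sulfate to phenols, thyroid hormones and steroids. Sult1b1 (chr5:87513339-87538195) measured 76.7 and 73.0 in WT DMSO, 102, 71.8 and 89.3 in WT FICZ, 30.2 and 25.6 in AHR KO DMSO and 27.4 and 19.3 in AHR KO FICZ. Sult2b1, which sulfates cholesterol, was at 223 and 247 in WT DMSO, 167, 190 and 158 in WT FICZ, 98.2 and 126 in AHR KO DMSO and 131 and 98.5 in AHR KO FICZ. Both were lower in every AHR KO library than in every WT library. The log2 difference of Sult1b1 was -1.40 ± 0.26 under DMSO (adjusted p = 0.00865) and -1.87 ± 0.24 under FICZ (adjusted p = 0.000383), and the latter call held in all alternatives. That of Sult2b1 was -1.07 ± 0.19 under DMSO (adjusted p = 0.00624) and -0.58 ± 0.17 under FICZ (adjusted p = 0.0357), where it held in 11 of 19 alternatives and leaving out AHR KO FICZ 3 gave -0.38 (adjusted p = 0.263). Without AHR KO DMSO 3 the DMSO call of Sult1b1 was lost (adjusted p = 0.0781), as it was without WT DMSO 2 (0.0606). That of Sult2b1 was lost without AHR KO DMSO 1 (0.0625) or WT DMSO 3 (0.0508). Sult1d1, which lies beside Sult1b1 on chromosome 5, and Sult4a1 were not called, at -0.99 and -0.52 under FICZ, although 3 alternatives called Sult1d1 there.

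Glucuronosyltransferases of the Ugt2 family conjugate steroids, bile acids and drugs. Ugt2b34 (chr5:86889767-86906937) was the more abundant of the 2 members, at 8131 and 8452 in WT DMSO, 6692, 7486 and 7209 in WT FICZ, 4256 and 4192 in AHR KO DMSO and 4675 and 2904 in AHR KO FICZ. The AHR KO libraries all lay below the WT libraries, with a log2 difference of -0.97 ± 0.16 under DMSO (adjusted p = 0.00528) and -0.95 ± 0.15 under FICZ (adjusted p = 0.00153). Under DMSO the call missed the threshold without AHR KO DMSO 3 (adjusted p = 0.0517), and the call under FICZ held in all alternatives, at -0.61 without AHR KO FICZ 3. Ugt2b35 was not called (-1.54 under DMSO and -0.59 under FICZ).

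Glutathione S-transferases couple glutathione to electrophiles. Gstt1, of the theta class (chr10:75783813-75798584), measured 83.7 and 71.3 in WT DMSO, 70.6, 91.0 and 89.1 in WT FICZ, 170 and 211 in AHR KO DMSO and 247 and 209 in AHR KO FICZ. All AHR KO libraries exceeded all WT libraries, with a log2 difference of 1.28 ± 0.19 under DMSO (adjusted p = 0.0026) and 1.44 ± 0.17 under FICZ (adjusted p = 0.000281), called in all alternatives. Gstt3, its neighbour, was also higher (0.34 under DMSO and 0.30 under FICZ), as was Gstt2 under FICZ (0.30). All 3 theta-class members, which lie near each other on chromosome 10 with Gstt4 (under the threshold) between Gstt1 and Gstt2, were thus called higher in AHR KO under FICZ, although the call of Gstt2 held in 13 of 19 alternatives only and was lost without AHR KO FICZ 3 (adjusted p = 0.183), AHR KO FICZ 1 (0.0658), WT FICZ 1 (0.0894) or WT FICZ 3 (0.0853), among others. Under DMSO the call of Gstt3 was lost without WT DMSO 2 (0.0519), AHR KO DMSO 1 (0.0672) or AHR KO DMSO 3 (0.0545). Gstm2, of the mu class, was called higher under FICZ with a ratio of means of 2.23, and lost this call without AHR KO FICZ 3 (adjusted p = 0.0705).

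Of the 3 pi-class genes, Gstp1 and Gstp2 were lower in AHR KO and Gstp3 was not called (-0.26, adjusted p = 0.351, under DMSO and -0.12, adjusted p = 0.626, with FICZ). Gstp1 (chr19:4035407-4037985) was -0.33 ± 0.049 on the log2 scale under DMSO (adjusted p = 0.00255) and -0.57 ± 0.044 under FICZ (adjusted p = 2.1e-05), called in all alternatives. Gstp2 was -0.73 ± 0.13 under DMSO (adjusted p = 0.0065), lost without WT DMSO 3 (0.0501) or AHR KO DMSO 3 (0.0629), and -0.85 ± 0.12 in the FICZ libraries (adjusted p = 0.000676). The values of both in every library are given with the FICZ response. Gstp1 shares 62.3% and Gstp2 72.6% of their 50-base words with other genes, mainly each other, so that counts may be split between them and their separate changes are uncertain. The alpha-class genes Gsta1 (-0.73) and Gsta4 (-0.32) were lower in AHR KO under FICZ and not called under DMSO. Of the 20 glutathione S-transferases, 2 were called higher and 2 lower under DMSO, and 4 and 4 under FICZ, against 9.05% and 20.0% of all genes called in either direction.

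**Figure D3:**
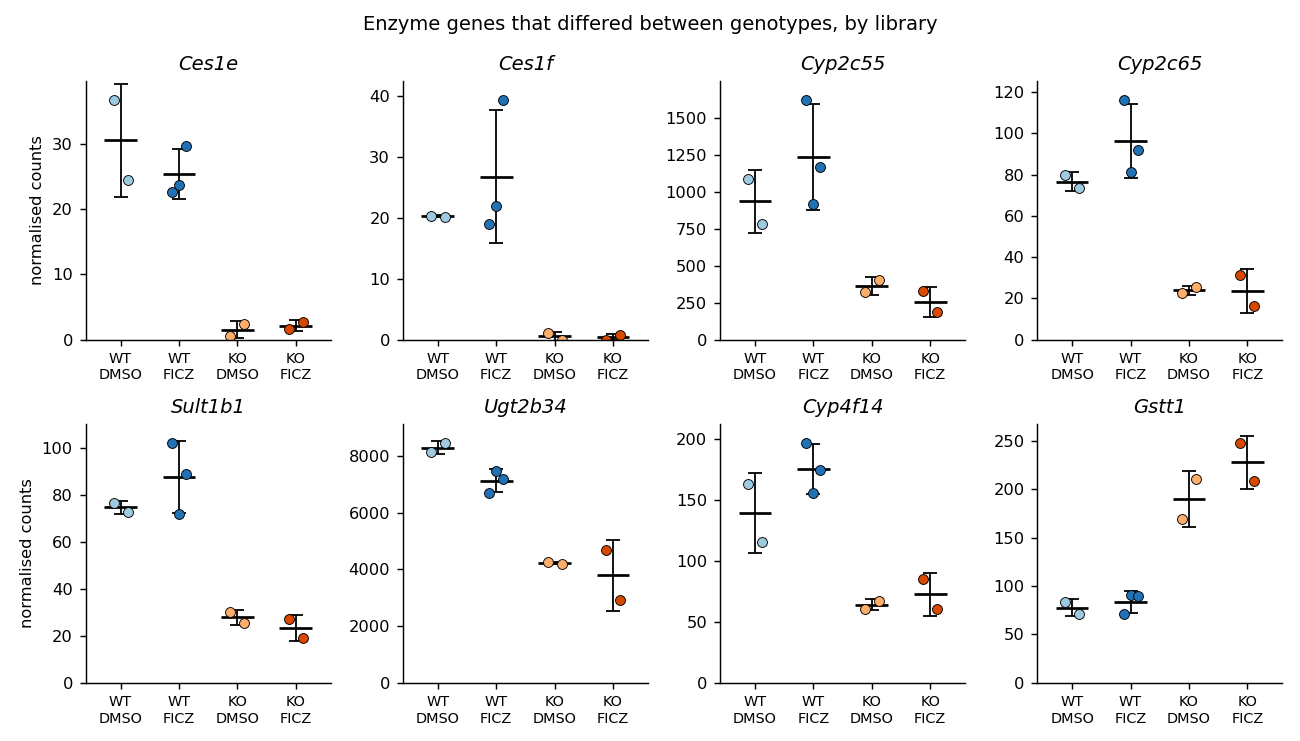
Normalised counts of 8 enzyme genes in each of the 9 libraries (points), with the mean (bar) and SD (whisker) of each group, on linear axes from 0. Ces1e and Ces1f are close to 0 in the 4 AHR KO libraries, Cyp2c55, Cyp2c65, Sult1b1, Ugt2b34 and Cyp4f14 are lower there, and Gstt1 is higher.

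Aldehyde dehydrogenases oxidise aldehydes from alcohol, lipids, amino acids and retinoids. Aldh1b1, a mitochondrial enzyme for acetaldehyde, was lower in AHR KO, with a log2 difference of -0.96 ± 0.13 (adjusted p = 0.00189) between DMSO libraries and -0.57 ± 0.12 (adjusted p = 0.00898) between FICZ libraries. Its lowest WT library was at 554 and its highest AHR KO library at 474. The folate enzyme Aldh1l1 (-0.61 and -0.46) and the aminobutyraldehyde oxidiser Aldh9a1 (-0.28 and -0.35) were lower in both comparisons, and Aldh4a1, of proline breakdown, was higher (0.44 and 0.40). Without AHR KO FICZ 3 the FICZ calls of Aldh1b1 (adjusted p = 0.0961) and Aldh1l1 (0.169) were lost. That of Aldh1l1 held in 15 of 19 alternatives and was also lost without WT FICZ 3 (0.0764) and in a fit of only the groups compared (0.0567). Under DMSO the calls of Aldh1l1 and Aldh9a1 held in 14 of 19 alternatives each: leaving out either AHR KO DMSO library ended both (0.066 to 0.162), as leaving out either WT DMSO library did (0.066 to 0.135). That of Aldh4a1 was lost without WT DMSO 2 (0.0594) or AHR KO DMSO 3 (0.0782). The fatty aldehyde dehydrogenase Aldh3a2 was called lower under FICZ (-0.39, adjusted p = 0.000391) and not under DMSO (-0.12, adjusted p = 0.204), where its groups did not overlap either, and the test of the difference between both did not call it (0.27, adjusted p = 0.273). Aldh1a1, which makes retinoic acid from retinaldehyde, was 344 and 301 in WT DMSO, 255, 232 and 171 in WT FICZ, 524 and 551 in AHR KO DMSO and 391 and 574 in AHR KO FICZ. It was higher in AHR KO under FICZ (log2 1.13 ± 0.19, adjusted p = 0.00225) and missed the threshold under DMSO (0.74 ± 0.21, adjusted p = 0.0542), where 6 alternatives called it.

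The second set of comparisons asked how the enzymes respond to 4 h of FICZ in each genotype. In WT, the aldehyde dehydrogenase Aldh3a1 gave the highest change, and Aldh3a2, Aldh4a1, Gstp1, Gstp2, Gsta1 and Gsta4 rose by smaller amounts. Aldh1a1 and Aldh1a3 were called lower, but Aldh1a3 was high in WT DMSO 2 alone, without which its log2 change was -0.29. Of the 62 members 10 were called (16.1%), against 30.8% of all genes tested. There were 7 called higher (11.3%, background 15.1%) and 3 called lower (4.84%, background 15.7%, with Ces2f as the third), so that the shares of members were under those of all genes in both directions. The median absolute change was 0.22 for the members and 0.21 for all genes. The count fell to 4 without WT DMSO 2 or without WT FICZ 3, to 6 without WT DMSO 3 and to 6 after removal of the trend with GC and length in each library. The calls of Aldh3a1, Aldh3a2 and Gstp1 held in all alternatives. The comparison shares its WT DMSO libraries with the genotype comparison under DMSO, and its WT FICZ libraries with that under FICZ.

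Aldh3a1 (chr11:61207537-61218421) oxidises aromatic and lipid-derived aldehydes and is a known AHR target. It measured 25.2 and 14.0 in WT DMSO and 221, 142 and 151 in WT FICZ. In AHR KO it was at 58.0 and 67.7 under DMSO and 51.6 and 98.2 under FICZ. WT DMSO libraries were lowest, WT FICZ libraries highest, and both AHR KO groups lay in between and overlapped each other. The FICZ change was 3.09 ± 0.33 on the log2 scale in WT (n = 2 and 3, limma adjusted p = 0.000268), a ratio of the means of 8.75, and 0.18 ± 0.36 in AHR KO (adjusted p = 0.762). The gene was higher in AHR KO than in WT under DMSO (log2 1.68 ± 0.36, adjusted p = 0.017) and lower under FICZ (-1.23 ± 0.33, adjusted p = 0.0248). The first of these calls was lost without WT DMSO 3 (adjusted p = 0.112), AHR KO DMSO 1 (0.0747) or AHR KO DMSO 3 (0.126), and the second held in 14 of 18 alternatives, being lost without AHR KO FICZ 1 (-0.77, adjusted p = 0.196) or WT FICZ 1 (0.0818) among others.

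Beside it on chromosome 11 lies Aldh3a2 (chr11:61223417-61267464), the fatty aldehyde dehydrogenase. Its values were 1822 and 1774 in WT DMSO, 2401, 2320 and 2297 in WT FICZ, 1634 and 1668 in AHR KO DMSO and 1801 and 1761 in AHR KO FICZ, with the 3 WT FICZ libraries above all others. It rose by 0.38 ± 0.05 in WT (adjusted p = 0.000622), a ratio of the means of 1.3. Aldh4a1 rose in both genotypes, from 482 and 505 to 618, 683 and 671 in WT and from 654 and 684 to 866 and 863 in AHR KO. Its log2 change was 0.41 ± 0.072 in WT (adjusted p = 0.0025) and 0.37 ± 0.079 in AHR KO (adjusted p = 0.0115). Neither call held once the trend with GC content and length was removed (0.21, adjusted p = 0.0794, and 0.15, adjusted p = 0.345). Part of its transcript (45% of 50-base words) is shared with the readthrough gene Gm21969, which had a mean of 1.0.

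Gstp1 gave the lowest adjusted p of any member in WT. It was at 7595 and 7590 in WT DMSO, 10400, 10510 and 10490 in WT FICZ, 5873 and 6224 in AHR KO DMSO and 7088 and 7031 in AHR KO FICZ. Replicates lay close together, and WT FICZ stood above all other groups. The log2 change with FICZ was 0.46 ± 0.044 in WT (adjusted p = 0.000192) and 0.22 ± 0.049 in AHR KO (adjusted p = 0.0125), where it was lost without AHR KO DMSO 1 (0.18, adjusted p = 0.123) and with the GC and length trend removed (0.09, adjusted p = 0.3). Between the genotypes, the FICZ changes of Gstp1 differed by 0.24, which was not called (limma adjusted p = 0.273). Gstp2 measured 913 and 972 in WT DMSO, 1087, 1401 and 1378 in WT FICZ, 580 and 556 in AHR KO DMSO and 778 and 645 in AHR KO FICZ. It rose by 0.44 ± 0.12 in WT (adjusted p = 0.0173), a call lost without WT DMSO 2 (adjusted p = 0.111), WT DMSO 3 (0.057) or WT FICZ 3 (0.0574) and with the GC and length trend removed (0.0571).

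The alpha-class transferases Gsta1 and Gsta4, the latter known for conjugating the lipid peroxidation product hydroxynonenal, moved in opposite directions in the 2 genotypes. Gsta4 (chr9:78182774-78209349) was at 5360 and 5569 in WT DMSO and 5998, 6266 and 6498 in WT FICZ, against 6207 and 5950 in AHR KO DMSO and 4838 and 5164 in AHR KO FICZ. Gsta1 (chr9:78230656-78242684) was at 867 and 917 in WT DMSO and 1180, 1121 and 1304 in WT FICZ, against 975 and 1015 in AHR KO DMSO and 610 and 853 in AHR KO FICZ. Within each genotype the FICZ and DMSO libraries did not overlap for either gene. Gsta4 rose by 0.19 ± 0.054 in WT (adjusted p = 0.0213) and changed by -0.28 ± 0.059 in AHR KO (adjusted p = 0.0106). Gsta1 rose by 0.43 ± 0.12 in WT (adjusted p = 0.0249) and changed by -0.46 ± 0.13 in AHR KO (adjusted p = 0.0376). In WT both calls were lost without WT DMSO 2, WT DMSO 3 or WT FICZ 3 (adjusted p = 0.0627 to 0.145), and that of Gsta1 also without WT FICZ 1 (0.0504). In AHR KO both were lost without AHR KO DMSO 1 or AHR KO FICZ 1 (0.0566 to 0.177, with Gsta1 at -0.22 without the latter) and with the GC and length trend removed (0.0758 and 0.212), and that of Gsta1 held in 11 of 19 alternatives, against 16 of 19 for Gsta4. Gsta1 shares 89.7% of its 50-base words with other genes, mainly Gm3776, so its counts are uncertain.

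**Figure D4:**
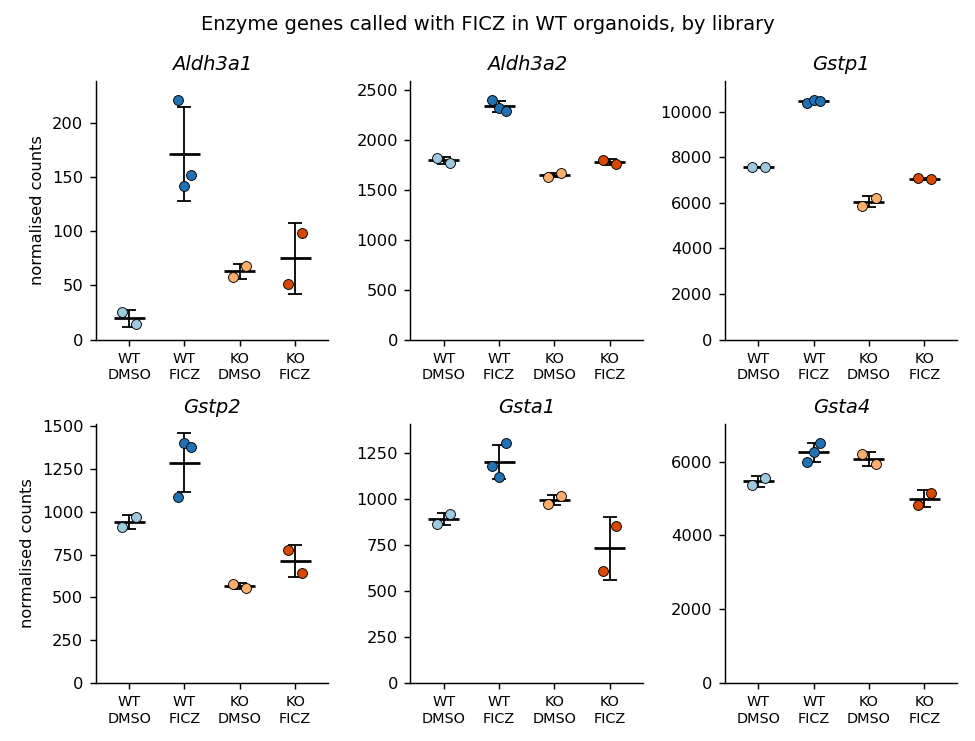
Normalised counts of 6 enzyme genes called with FICZ in WT in each of the 9 libraries (points), with the mean (bar) and SD (whisker) of each group, on linear axes from 0. Aldh3a1 goes from 14.0 to 25.2 in WT DMSO to 142 to 221 in WT FICZ, and Gsta1 and Gsta4 are higher with FICZ in WT and lower with FICZ in AHR KO.

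Aldh1a1 and Aldh1a3 were called lower with FICZ in WT. Ces2f, whose values and selection are given with the genotype comparison, had a log2 change of -1.66 ± 0.49. Aldh1a1, likewise given there, had a change of -0.57 ± 0.19 (adjusted p = 0.0438). Aldh1a3, another retinaldehyde oxidiser, had a log2 change of -1.14 ± 0.39 (adjusted p = 0.0488) and was at 477 and 146 in WT DMSO, 151, 117 and 95.4 in WT FICZ, 123 and 130 in AHR KO DMSO and 115 and 134 in AHR KO FICZ. WT DMSO 2 stood apart from the other 8 libraries of Aldh1a3, whose groups overlapped. The call of Aldh1a3 held in 5 of 19 alternatives and that of Aldh1a1 in 9 of 19. Both were lost without WT DMSO 2, where Aldh1a3 changed by -0.29 (adjusted p = 0.455), Aldh1a1 by -0.48 (adjusted p = 0.216) and Ces2f by -1.03, and without WT FICZ 3 (0.129 for Aldh1a3 and 0.115 for Aldh1a1). Aldh1a1 also lost its call without WT DMSO 3 (0.0927) or WT FICZ 2 (0.0512), and Aldh1a3 without WT FICZ 1 (0.0519) or WT FICZ 2 (0.085).

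In AHR KO, 6 members (9.68%) were called with FICZ against 19.7% of all genes. Of these 3 were higher (4.84%, background 10.2%) and 3 lower (4.84%, background 9.48%). Besides Aldh4a1, Gstp1, Gsta1 and Gsta4 they were Gstt2, at 366 and 345 under DMSO and 428 and 456 under FICZ (log2 0.31 ± 0.094, adjusted p = 0.0411), and Aldh7a1, of lysine breakdown, at 802 and 891 under DMSO and 670 and 661 under FICZ (log2 -0.35 ± 0.099, adjusted p = 0.0363). In WT, where neither was called, Gstt2 was at 328 and 333 under DMSO and 345, 375 and 354 under FICZ. Aldh7a1 was at 637 and 690 under DMSO and 782, 698 and 649 under FICZ in WT. Called in the same direction in both genotypes were 2 members, Aldh4a1 and Gstp1, and Gsta1 and Gsta4 were called in opposite directions. The 2 were 20.0% of the 10 members called in WT and 33.3% of the 6 called in AHR KO. Over all genes the same shares were 49.2% and 77.1%, so many genes moved alike with FICZ in both genotypes. None of the 6 calls held in all alternatives. That of Gstt2 held in 7 of 19 and that of Aldh7a1 in 13 of 19, and both were lost without any 1 of the 4 AHR KO libraries (adjusted p = 0.0743 to 0.178 for Gstt2 and 0.093 to 0.188 for Aldh7a1). The count was 0 without AHR KO DMSO 1, 3 without AHR KO FICZ 1, and 0 with the GC and length trend removed.

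The test of the difference between the genotypes' responses called 2 members (3.23%), against 0.447% of all genes. Both had a more positive change in WT (background 0.377%), and 0 were called in the other direction (background 0.0706%). At an unadjusted p under 0.05 there were 9 members of 62 in either direction, 14.5% against 7.47% of all genes. The difference was 2.91 ± 0.49 for Aldh3a1 (adjusted p = 0.0356) and 0.48 ± 0.08 for Gsta4 (adjusted p = 0.0356). For Gsta1 it was 0.89 ± 0.18 and was not called (adjusted p = 0.0912), except without AHR KO FICZ 3 (1.13, adjusted p = 0.00789). Neither call was stable, with that of Aldh3a1 held in 10 of 17 alternatives and that of Gsta4 in 9 of 18: without AHR KO DMSO 1 the adjusted p was 0.145 for Aldh3a1 and 0.235 for Gsta4, without AHR KO DMSO 3 it was 0.191 and 0.136, and without WT DMSO 3 it was 0.122 and 0.109. Aldh3a1 was also lost without WT FICZ 1 (0.0797), WT FICZ 3 (0.0768) or AHR KO FICZ 1 (0.0835), and Gsta4 without WT DMSO 2 (0.17), WT FICZ 3 (0.109), AHR KO FICZ 1 (0.0983) or AHR KO FICZ 3 (0.0544).

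No P450, sulfotransferase or Ugt2 member was called with FICZ in either genotype. Among these 19 members 0 passed limma's threshold in WT, against 30.8% of all genes, and 3 had an unadjusted p under 0.05 (Cyp4f16, Cyp4v3 and Sult2b1), against 42.1% of all genes. In AHR KO 0 passed limma's threshold, against 19.7%, and 1 had an unadjusted p under 0.05 (Cyp4f13), against 34.3%. Their log2 changes ran from -0.92 to 0.72 in WT and from -0.55 to 0.36 in AHR KO. The widest 95% intervals reached -1.86 and 1.48 in WT. Cyp2c55, the most abundant P450, changed by 0.38 ± 0.27 in WT (95% interval -0.22 to 0.99) and its FICZ and DMSO libraries overlapped. Other settings called Sult2b1 (-0.52 to -0.45), Cyp4f16 (0.30) or Ugt2b34 (-0.22) in WT, and Ugt2b34 in AHR KO without AHR KO FICZ 1 (-0.54, adjusted p = 0.00989).

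**Figure D5:**
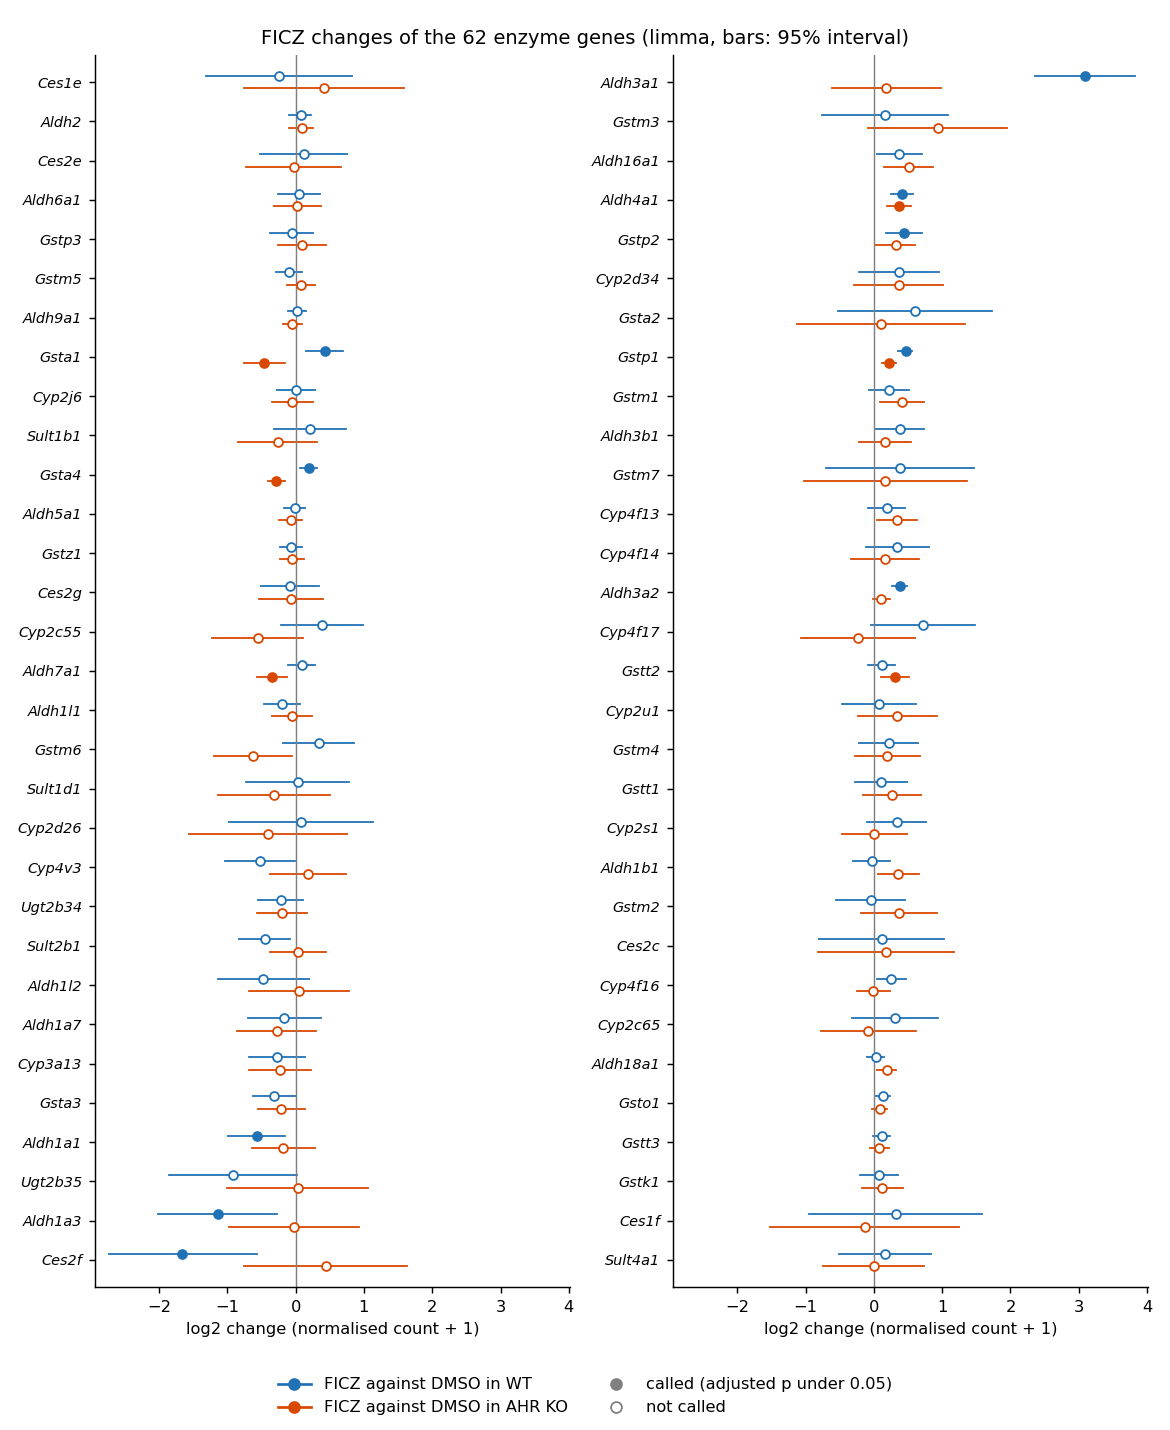
Change with FICZ on the log2(normalised count + 1) scale for the 62 enzyme genes in WT (blue, upper point) and AHR KO (orange, lower point), with bars for the 95% interval of the limma fit and filled points for called genes. Aldh3a1 in WT stands apart at 3.09, and no other called member rose by more than 0.46 in either genotype.

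AHR binds DNA at a short core, GCGTG, and the promoter windows of RefSeq (GRCm38.p6, from 250 bases before to 50 after each start) were searched for these letters on both strands. Of the 62 members 50 had a window, and 17 of them (34.0%) held the core, against 35.2% of 27025 genes. Letters bound by the oxidative stress factor NRF2, TGACNNNGC, were found in 7 members (14.0%), against 14.0% of all genes. The members' shares were thus close to those of all genes. Of the 7 members called higher with FICZ in WT, Aldh3a1, which changed most, and Gsta4 had no window. Of the 5 with a window, 4 held the AHR core: Aldh3a2, Gstp1, Gsta1 and Aldh4a1. The stretches around those matches are shown because these members rose with FICZ in WT, in gene direction, with the core in capitals (CACGC where it lies on the other strand). The match starts 117 bases before the start of Aldh3a2, 13 before that of Gstp1, 2 before that of Gsta1, and 185 and 55 before that of Aldh4a1. These distances are from the RefSeq start. The GENCODE spans printed for genes above begin further upstream, so that the matches of Aldh3a2, Gstp1 and Gsta1 fall inside them.
Aldh3a2, chr11:61267269-61267333, minus strand: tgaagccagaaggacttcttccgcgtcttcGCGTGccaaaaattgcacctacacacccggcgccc
Gstp1, chr19:4037913-4037955, minus strand: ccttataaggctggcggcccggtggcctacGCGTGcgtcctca
Gsta1, chr9:78230637-78230671, plus strand: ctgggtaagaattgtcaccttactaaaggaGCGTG
Aldh4a1, chr4:139622679-139622743, plus strand: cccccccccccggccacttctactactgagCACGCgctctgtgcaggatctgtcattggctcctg
Aldh4a1, chr4:139622809-139622873, plus strand: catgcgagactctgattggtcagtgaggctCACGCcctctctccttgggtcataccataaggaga
A match is a description of the letters and does not show that AHR binds there.

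Other genes of the same pathway were examined as lists, whose counts stand beside 9.05% of all genes called for genotype under DMSO, 20.0% under FICZ, and 30.8% in WT and 19.7% in AHR KO for FICZ. Of 21 tested oxidoreductases and hydrolases outside the member families, 3 were higher and 4 lower in AHR KO under DMSO, and 3 and 7 under FICZ. The alcohol dehydrogenase Adh1 had the difference of greatest size in this list, with group means of 86.4 ± 11.9 (SD) in WT DMSO, 97.6 ± 20.2 in WT FICZ, 14.1 ± 1.84 in AHR KO DMSO and 12.2 ± 2.34 in AHR KO FICZ (log2 -2.53 and -2.89). Maoa, which deaminates monoamines, was lower under DMSO (-0.79) and under FICZ (-1.09). With FICZ in WT 4 of the 21 rose and 1 fell, led by the carbonyl reductase Cbr3 (1.12), which was also lower in AHR KO than in WT under FICZ (-1.04). With FICZ in AHR KO 1 rose and 2 fell.

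Of 13 other conjugating enzymes and cofactor genes, 1 was higher and 3 lower in AHR KO under DMSO, and 1 and 5 under FICZ. Papss2, which makes the sulfate donor used by sulfotransferases, was lower (-1.06 and -1.21), and the microsomal transferase Mgst1 was higher (1.11 and 1.11). With FICZ, 4 rose and 2 fell in WT, and 1 rose and 1 fell in AHR KO, all by less than 1 on the log2 scale. Among 6 efflux transporters, 1 was higher and 1 lower in AHR KO under DMSO and 2 and 2 under FICZ, where Abcb1b, encoding a P-glycoprotein, had 1.54. With FICZ 1 rose and 1 fell in WT and 1 rose in AHR KO. Of 11 regulators, 1 was higher and 6 lower in AHR KO under DMSO, and 1 and 7 under FICZ. The xenobiotic receptor gene Nr1i2 (PXR) was lower in both (-1.51 and -1.82), as was the bile acid receptor gene Nr1h4 (-1.12 and -1.62). With FICZ, 7 regulators rose in WT, among them Tiparp (1.84), and 3 rose and 1 fell in AHR KO. Tiparp, an AHR feedback gene, differed between genotypes under FICZ by -2.09. Ahrr, the AHR repressor, is counted in each of these comparisons although it met the threshold through the FICZ libraries alone, so it is described without a fold or test: its group means were 1.5 in WT DMSO, 477 in WT FICZ, 0 in AHR KO DMSO and 17.1 in AHR KO FICZ.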

How the data were processed

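Total RNA from colon organoids was sequenced from stranded libraries depleted of ribosomal RNA. The authors deposited 1 table of normalised read counts, a signal that need not be whole. Per the labels, STAR 2.5.2a, RSEM 1.2.31 and DESeq2 1.16.1 were used on GRCm38. Which scaling made the table is not stated, so differences in depth cannot be weighted as counts would allow, and no count model was applied.

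Symbols, coordinates and lengths came from GENCODE M21 (48349 identifiers matched). Members and lists were chosen with earlier results of these data known. Genes with a mean of 10 or more (12741) were fitted as log2(value + 1) with limma 3.58.1 in R 4.3.3 (group means over all 9 libraries, eBayes with trend, two-sided), and p-values were Benjamini-Hochberg adjusted over all of them. This scale understates changes of low genes. The fit was tested on simulated data, whose outcome is not given here and on which no result above rests. Depth was estimated from the step of low values, at 21.5 to 30.1 M reads. Ratios of means and shared 50-base words between transcripts were computed with Python 3.11.15. In each comparison up to 10 called members with the largest change, and the member highest per kb in each class, were given by library. List genes were named where called with an absolute log2 change of 1 or more. Alternatives were pseudocounts of 0.1 and 10, no filter, a mean of 100 or more, upper-quartile and quantile scaling, robust eBayes, only the groups compared, removal of a GC and length trend (spline of 5 degrees of freedom), a replicate block, and leaving out each library. A gene of the epithelial marker list is not reported here.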

Additional observations from a re-analysis of the deposited data

Results flagged for a closer look

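A pair of members differed between genotypes in their response to FICZ by the test of the difference itself. For Aldh3a1 the log2 change with FICZ in WT exceeded that in AHR KO by 2.91 (limma adjusted p = 0.0356). For Gsta4 it did so by 0.48 (limma adjusted p = 0.0356), with all WT FICZ libraries above WT DMSO and both AHR KO FICZ libraries below AHR KO DMSO. The cause was not tested.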

How the results depend on the processing

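Each comparison was repeated under 19 alternatives, 10 of them other than leaving out a library; the test of the difference used all 4 groups and so had no fit to only the groups compared, and members with a mean under 100 had no value under the higher filter. No called member changed direction. Called in all alternatives were 3 of 10 members for FICZ in WT, 0 of 6 for FICZ in AHR KO, 0 of 2 for the difference between them, 5 of 18 for genotype under DMSO and 17 of 28 under FICZ (Ces1e and Ces1f, which met the threshold through WT alone, among both). Leaving out 1 library gave 4 to 11 members (1990 to 4133 of all genes) for FICZ in WT, 0 to 8 (420 to 2961) for FICZ in AHR KO, 0 to 2 (23 to 78) for the difference, 7 to 21 (389 to 1465) for genotype under DMSO and 18 to 28 (1312 to 3084) under FICZ. With the GC and length trend removed, FICZ called 6 members in WT (2237 of all genes) and 0 in AHR KO (618). With no filter, FICZ in AHR KO called 3 and the difference 0. The difference called 1 member with a mean of 100 or more and 1 with the replicate block. Deviations of libraries with the same replicate number correlated at 0.0346 to 0.0498, so the numbers were not taken as pairs. The block gave 9, 7, 17 and 24 members for the other comparisons in the order above. Among the calls it ended was that of Aldh3a1 for genotype under FICZ (log2 -1.18, limma adjusted p = 0.0579). The cause of these shifts was not tested, except that leaving out a library lowers the residual degrees of freedom and the higher filter removes members. Groups of 2 and low counts limit what could be detected for the Ces1 genes and other low members.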
